A study of Homo sapiens with 18 samples.

Results

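The genes described here are 10 inhibitors of MAP kinase signaling: the MAPK phosphatases DUSP1, DUSP4, DUSP5, DUSP6, DUSP8, DUSP10 and DUSP16, the Sprouty proteins SPRY2 and SPRY4, and the Sprouty-related protein SPRED1. They were taken by symbol from a table of 36684 gene symbols, and all 10 passed the filter on low counts, together with 14557 genes in all. RNA-seq was performed on Hep3B, a human hepatocellular carcinoma cell line, in 6 groups of 3 libraries. The Con cells received no treatment, the Model cells received free fatty acids (FFA), and the FUCO-0.5, FUCO-1 and FUCO-2 cells received FFA with 0.5, 1 and 2 μM of fucoxanthin (FUCO), a carotenoid of brown seaweeds. The RES cells received FFA with Resmetirom, an agonist of thyroid hormone receptor β. FFA were therefore common to every group except Con, and no group received FUCO or RES without FFA. The FFA concentration, the RES dose and the treatment times are not given for these libraries in the sources used here. The model is a single carcinoma line in culture, and its libraries are biological replicates of one line, so the p-values measure the spread between cultures of that line.

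Growth factors, stress and lipids activate MAP kinase cascades, in which a kinase chain ends in ERK, JNK or p38. The cascades switch on genes that then shut them down. The MAPK phosphatases remove phosphate from the kinases themselves: DUSP1 and DUSP4 act in the nucleus on ERK, JNK and p38, DUSP5 is a nuclear and DUSP6 a cytoplasmic phosphatase of ERK, and DUSP8, DUSP10 and DUSP16 prefer the stress kinases JNK and p38. The Sprouty and Spred proteins act further up, between growth factor receptors, RAS and RAF. Several of these genes are transcribed within minutes of ERK activation, and their transcripts are short-lived.

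Library totals ranged from 16916688 to 23083498 counts, and each of the 10 genes had at least 70 counts in every library. Levels are in CPM, that is counts scaled to each library's effective (TMM-adjusted) size, and a level with ± is the mean and SD over 3 libraries. A gene passed the test when its Benjamini-Hochberg adjusted p in edgeR's quasi-likelihood test was under 0.05 over the 14557 genes. Fold changes are on the log2 scale with their standard error (SE). The summed level of 9 hepatocyte markers, such as ALB and TF, was 63853 to 71805 CPM in the Con libraries. Of 11 markers of other liver cells, CD163, COL3A1 and MARCO had 0 counts in every library, PTPRC had at most 2 and VWF at most 1. The stromal genes LUM and COL1A1 had 51 to 306 and 12 to 56 counts and the endothelial gene PECAM1 had 3 to 36, and the 11 summed to between 5.83 and 19.5 CPM. Against Con, the hepatocyte sum was lower in every other group. It was 53008 to 53427 CPM in the Model, 44278 to 55919 CPM at 0.5 μM, 47250 to 49618 CPM at 1 μM, 35669 to 40248 CPM at 2 μM and 15203 to 15580 CPM with RES. Its part in the results on the 10 genes was not tested.

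RefSeq (GRCh38.p14) places DUSP1 at chr5:172768096-172771195, DUSP6 at chr12:89347235-89352501, DUSP8 at chr11:1554051-1572848 and DUSP10 at chr1:221701424-221742089, all on the minus strand. DUSP5 lies at chr10:110497907-110511533 on the plus strand, and DUSP16 at chr12:12473282-12562863, SPRY2 at chr13:80335976-80341126 and SPRY4 at chr5:142310430-142325021 on the minus strand. SPRED1 lies at chr15:38252836-38357249 on the plus strand. The counting is not stated to have used the strand, so reads of overlapping genes cannot be separated. This concerns DUSP8, which overlaps the antisense gene KRTAP5-AS1, DUSP6, which overlaps the read-through gene POC1B-DUSP6, and SPRY4, which overlaps SPRY4-IT1. The promoter table held 8 of the 10 genes, in 11 windows. The 250 bases before a start of 4 phosphatase genes are shown on the coding strand because the results below turn on these genes. The DUSP8 window lies before a start within the span of DUSP8 given above. DUSP10 has another window, chr1:221736901-221737150, which is not shown. DUSP1 and DUSP10 were high in the Model and low with FUCO, DUSP6 fell with FUCO without a rise in the Model, and DUSP8 was low with RES. Capitals mark the full cAMP response element TGACGTCA, the E-box CACGTG and the TATA box TATAAA, which were searched on both strands.
DUSP1, chr5:172771196-172771445, minus strand: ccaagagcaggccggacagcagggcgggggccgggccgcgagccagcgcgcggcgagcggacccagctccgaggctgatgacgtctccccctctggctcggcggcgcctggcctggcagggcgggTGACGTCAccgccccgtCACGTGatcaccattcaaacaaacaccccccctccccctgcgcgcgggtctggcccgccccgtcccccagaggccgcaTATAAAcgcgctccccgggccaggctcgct
DUSP10, chr1:221742090-221742339, minus strand: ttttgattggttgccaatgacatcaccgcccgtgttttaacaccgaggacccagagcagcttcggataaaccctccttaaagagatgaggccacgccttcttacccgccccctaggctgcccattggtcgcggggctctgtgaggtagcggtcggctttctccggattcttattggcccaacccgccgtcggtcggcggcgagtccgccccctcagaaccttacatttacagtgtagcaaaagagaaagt
DUSP6, chr12:89352502-89352751, minus strand: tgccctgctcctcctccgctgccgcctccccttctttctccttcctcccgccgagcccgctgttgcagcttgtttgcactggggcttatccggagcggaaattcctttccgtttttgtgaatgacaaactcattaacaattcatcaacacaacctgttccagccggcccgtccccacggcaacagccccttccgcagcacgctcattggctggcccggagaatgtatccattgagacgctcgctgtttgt
DUSP8, chr11:1572272-1572521, minus strand: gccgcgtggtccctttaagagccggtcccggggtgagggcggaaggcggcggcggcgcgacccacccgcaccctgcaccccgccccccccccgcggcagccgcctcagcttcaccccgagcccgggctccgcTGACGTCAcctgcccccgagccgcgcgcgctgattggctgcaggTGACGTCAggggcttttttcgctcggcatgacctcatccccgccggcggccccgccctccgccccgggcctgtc

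The cAMP response element, the site bound by CREB and ATF proteins, occurred once in the DUSP1 window, 125 to 118 bases before the start. It occurred at 2 places in the DUSP8 window, 118 to 111 and 74 to 67 bases before the start. It was present in 1.65% of all 35116 promoter windows of the same length. DUSP1 and DUSP8 were the 2 genes of the 8 with this element. The DUSP1 window also held the E-box (6.34% of all windows) 108 to 103 bases and the TATA box (10.7%) 30 to 25 bases before the start. Neither the DUSP6 nor the DUSP10 window held any of the motifs. The EGR motif GCGNGGGCG (8.41%) was found in windows of SPRY2, SPRY4 and DUSP16. The AP-1 site TGANTCA (6.57%), the ETS site CCGGAAGT (3.42%) and the SRE (CArG box, 1.16%) were found in none of the 11 windows, which says only that these letters are not within 250 bases of these starts.

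Compared per kilobase of exon (GENCODE v44 exon union), the 10 genes spanned a wide range in untreated cells. DUSP1 was highest with 77.4 ± 5.71 CPM per kb in Con, followed by DUSP6 with 39.9 ± 2.36, SPRY2 with 14.3 ± 1.48 and DUSP8 with 12.1 ± 0.277 CPM per kb. DUSP16 (7.04 ± 0.238 CPM per kb) and DUSP5 (6.52 ± 1.17 CPM per kb) overlapped between libraries. DUSP10 followed with 3.66 ± 0.218 CPM per kb, and SPRED1 (2.7 ± 0.260), DUSP4 (2.47 ± 0.664) and SPRY4 (2.03 ± 0.131 CPM per kb) overlapped their neighbours at the low end. DUSP1, DUSP6 and SPRY2 kept the first 3 places in all 6 groups, although SPRY2 and DUSP8 overlapped at 0.5 and 2 μM FUCO, whereas DUSP8 moved from the fourth place in the other groups to the seventh with RES. The most abundant MAPK phosphatase of Con was DUSP9, a cytoplasmic ERK phosphatase outside the 10, with 110.0 ± 3.69 CPM per kb.

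**Figure D1:**
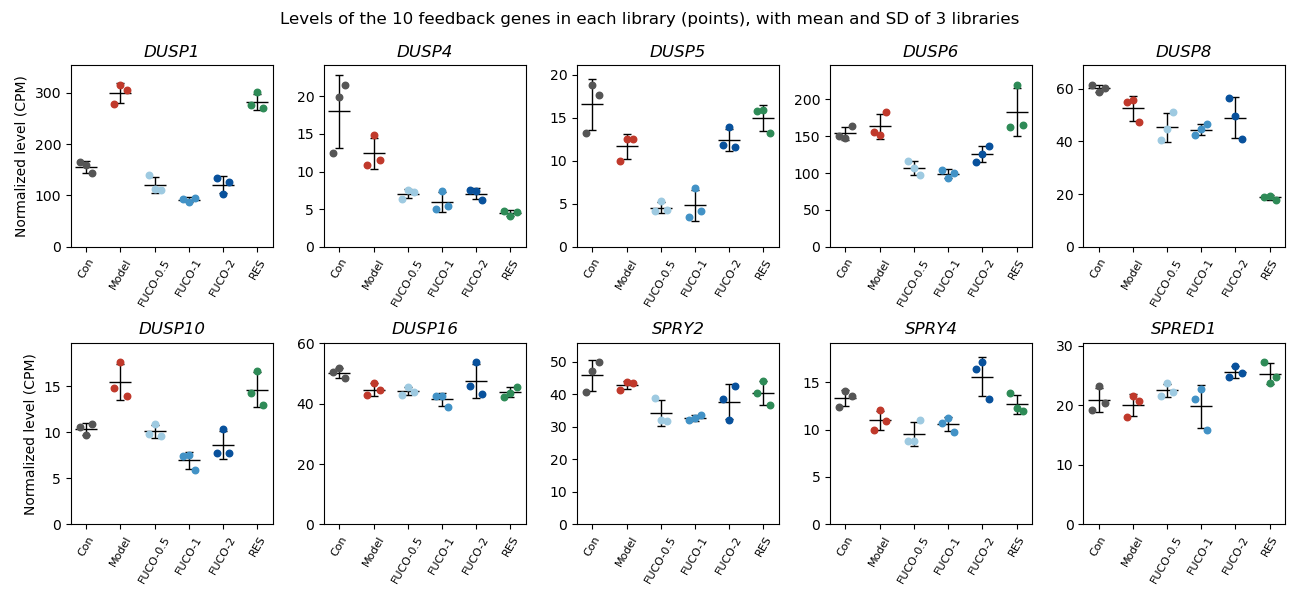
Level of each gene (CPM, vertical axis from 0, 1 panel a gene) in each library (points, colored by group), with bars for the mean and SD of 3 libraries. DUSP1 stood at 277 to 315 CPM in the Model and at 86.9 to 139 CPM in the 9 FUCO libraries, and DUSP8 at 17.8 to 19.4 CPM with RES.

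The Model was compared with Con to ask which of these inhibitors followed the fatty acid load. DUSP1 and DUSP10 were higher in the Model, and DUSP4 and DUSP5 were lower. Thus 2 of the 10 genes passed the test as higher, where 8.43% of all genes did, and 2 as lower, where 9.12% did. The remaining 6 genes did not pass, and the median change of the 10 was -0.13, against 0.00 for all genes. DUSP1 measured 165, 159 and 143 CPM in the 3 Con libraries and 277, 315 and 306 CPM in the 3 Model libraries. Every Model library thus lay above every Con library, at 1.92 times the Con level (log2 fold change 0.94 ± 0.09, adjusted p = 2.04e-07 by edgeR). DUSP10, a phosphatase of JNK and p38, had 10.5, 9.67 and 10.9 CPM in the Con libraries and 14.8, 17.6 and 13.9 CPM in those of the Model. These groups did not overlap either, and the level was 1.49 times that of Con (log2 fold change 0.57 ± 0.13, adjusted p = 0.00305 by edgeR).

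The nuclear phosphatases DUSP4 and DUSP5 moved the other way. DUSP4 had 12.5, 19.9 and 21.5 CPM in the Con libraries and 10.9, 14.8 and 11.5 CPM in those of the Model, and the lowest Con library lay within the Model range. Its log2 fold change was -0.54 ± 0.16 (adjusted p = 0.0239 by edgeR). DUSP5 had 13.2, 18.8 and 17.6 CPM in the Con libraries and 9.98, 12.5 and 12.5 CPM in those of the Model, without overlap, for a log2 fold change of -0.51 ± 0.16 (adjusted p = 0.0338 by edgeR). Both calls depended on single libraries. DUSP4 no longer passed in edgeR without Con replicate 2 or 3 or Model replicate 1 or 3 (adjusted p up to 0.168), and DUSP5 without Con replicate 2 or 3 or any 1 Model library (adjusted p up to 0.16). DUSP6, the cytoplasmic ERK phosphatase, stood at 154 ± 9.1 CPM in Con against 163 ± 17 CPM in the Model, and the 95% interval of its log2 difference ran from -0.12 to 0.29. When an absolute log2 fold change over 1 was also required, 0 of the 10 genes were called by edgeR, against 1.95% of all genes, although 6 of the 10 had an unadjusted p under 0.05, where 30.2% of all genes did, and DESeq2 called 4 without the fold requirement.

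FUCO was compared with the Model at each dose to ask whether it moved these inhibitors in FFA-treated cells. All comparisons with the Model share the same 3 Model libraries, and the 10 genes were chosen with earlier results of these data known. At 0.5 μM, 5 of the 10 genes passed as lower (DUSP1, DUSP4, DUSP5, DUSP6 and DUSP10), where 1.16% of all genes did. At 1 μM, 6 passed as lower, the same 5 with SPRY2, where 2.32% of all genes did. The median change of the 10 was -0.47 and -0.55 at these doses, against 0.00 for all genes at both. With the fold requirement 2 of the 10 were called at 0.5 μM (DUSP1 and DUSP5), against 0.268% of all genes, and 4 at 1 μM (DUSP1, DUSP4, DUSP5 and DUSP10), against 0.495%. In a bulk library, fewer cells with a transcript and less transcript per cell cannot be told apart.

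Of the 10 genes, DUSP1 had the lowest log2 fold change at 1 μM. It had 139, 113 and 111 CPM at 0.5 μM and 93.5, 86.9 and 95.5 CPM at 1 μM. All 6 libraries lay below the Model and below Con as well, and the means were 40.4% and 30.7% of the Model mean. The log2 fold change was -1.31 ± 0.10 at 0.5 μM (adjusted p = 1.6e-09 by edgeR) and -1.70 ± 0.10 at 1 μM (adjusted p = 9.4e-12 by edgeR). DUSP10 had 9.82, 10.9 and 9.54 CPM at 0.5 μM, which overlapped the range of Con, and 7.38, 7.54 and 5.88 CPM at 1 μM, below every Con library. Its log2 fold change against the Model was -0.61 ± 0.13 (adjusted p = 0.0113 by edgeR) and -1.15 ± 0.14 (adjusted p = 3.76e-06 by edgeR).

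The ERK phosphatases DUSP5 and DUSP6 also fell, although neither had risen in the Model. DUSP5 had 4.12, 5.28 and 4.3 CPM at 0.5 μM and 3.47, 6.83 and 4.11 CPM at 1 μM, 39.2% and 41.2% of the Model mean, with no overlap with the Model at either dose. The log2 fold changes were -1.35 ± 0.19 (adjusted p = 6.37e-05 by edgeR) and -1.28 ± 0.19 (adjusted p = 8.6e-05 by edgeR). DUSP6 had 156, 152 and 183 CPM in the Model, 117, 106 and 96.9 CPM at 0.5 μM and 104, 93.2 and 101 CPM at 1 μM. Again the treated libraries lay below all Model libraries, with log2 fold changes of -0.61 ± 0.10 (adjusted p = 0.000814 by edgeR) and -0.72 ± 0.10 (adjusted p = 7.86e-05 by edgeR). DUSP4 had 6.37, 7.58 and 7.31 CPM at 0.5 μM and 5.0, 7.48 and 5.48 CPM at 1 μM, without overlap with the Model. Its log2 fold changes were -0.81 ± 0.18 (adjusted p = 0.0149 by edgeR) and -1.05 ± 0.18 (adjusted p = 0.000711 by edgeR).

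Among the Sprouty and Spred genes the changes at these doses were small. SPRY2, an inhibitor of receptor signaling to RAS, had 41.3, 43.9 and 43.3 CPM in the Model, 39, 32.2 and 31.9 CPM at 0.5 μM and 32, 32.6 and 33.7 CPM at 1 μM. Its log2 fold change was -0.32 ± 0.10 at 0.5 μM, which did not pass (adjusted p = 0.149 by edgeR), and -0.39 ± 0.10 at 1 μM, which did (adjusted p = 0.0324 by edgeR). SPRY4 stood at 11 ± 1.02, 9.54 ± 1.26 and 10.6 ± 0.75 CPM in the Model and at 0.5 and 1 μM, and SPRED1, which keeps RAS from activating RAF, at 20.1 ± 1.84, 22.5 ± 1.11 and 19.8 ± 3.62 CPM. DUSP8 and DUSP16, phosphatases of the stress kinases, did not pass either. At 1 μM the 95% interval of the log2 difference from the Model ran from -0.45 to -0.04 for DUSP8 and from -0.27 to 0.06 for DUSP16. The calls of DUSP4 and DUSP10 at 0.5 μM and of SPRY2 at 1 μM were lost in edgeR when single libraries were left out. Without Model replicate 2 the adjusted p was 0.148, 0.1248 and 0.13, and without FUCO-0.5 replicate 1 it was 0.1 for DUSP4 and 0.0674 for DUSP10. DUSP10 was also lost without FUCO-0.5 replicate 3 (adjusted p = 0.0575 by edgeR), and SPRY2 without any 1 of the 6 libraries compared.

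**Figure D2:**
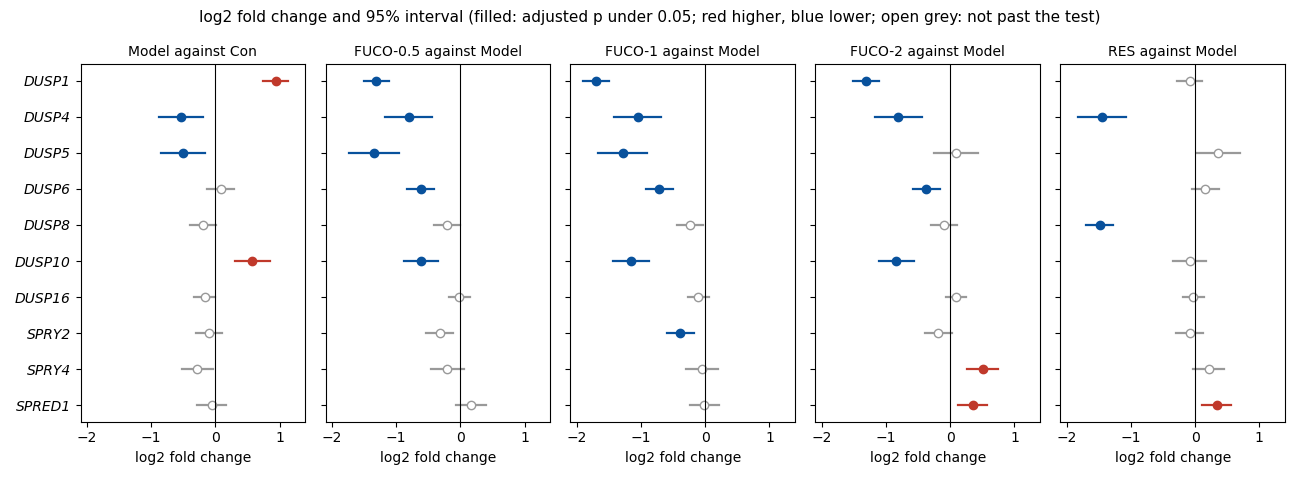
log2 fold change of each gene (horizontal axis) with its 95% interval in 5 comparisons, Model against Con and each treatment against the Model. Filled symbols passed the test (red higher, blue lower) and open grey symbols did not. DUSP1 lies at 0.94 in the Model and between -1.70 and -1.31 at the 3 FUCO doses, and with RES only DUSP4, DUSP8 and SPRED1 are filled.

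The 1 μM dose was compared with 0.5 μM to ask whether more FUCO changed these genes further. By edgeR 0 of the 10 genes passed, where 0.00687% of all genes did, and with the fold requirement 0 of the 10 were called, against 0.0% of all genes. At an unadjusted p under 0.05 there were 2, where 10.7% of all genes were, DUSP1 (log2 fold change -0.40 ± 0.10, adjusted p = 0.16 by edgeR) and DUSP10 (log2 fold change -0.54 ± 0.14, adjusted p = 0.182 by edgeR). Both were lower in all 3 libraries at 1 μM than in any at 0.5 μM, and DESeq2 called DUSP1. For DUSP5 the 95% interval of the log2 difference ran from -0.36 to 0.49.

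The 2 μM dose differed from 1 μM. Between these doses 5 of the 10 genes passed as higher at 2 μM (DUSP1, DUSP5, DUSP6, SPRY4 and SPRED1), where 4.07% of all genes did. The median change of the 10 was 0.33, against 0.01 for all genes, and all 10 had a positive log2 fold change. With the fold requirement 1 of the 10 was called, DUSP5, against 0.577% of all genes. DUSP5 had 11.9, 13.9 and 11.6 CPM at 2 μM, 2.6 times its level at 1 μM, and no library at 2 μM overlapped any at the lower doses (log2 fold change 1.38 ± 0.18, adjusted p = 5.29e-05 by edgeR). SPRY4 had 10.7, 11.3 and 9.77 CPM at 1 μM and 16.4, 17.1 and 13.2 CPM at 2 μM (log2 fold change 0.56 ± 0.12, adjusted p = 0.00549 by edgeR). These groups did not overlap. SPRED1 had 21, 22.7 and 15.8 CPM at 1 μM and 24.7, 26.6 and 25.3 CPM at 2 μM, also without overlap (log2 fold change 0.36 ± 0.11, adjusted p = 0.0475 by edgeR). DUSP1 had 134, 102 and 127 CPM at 2 μM and was higher than at 1 μM by 0.39 ± 0.10 on the log2 scale (adjusted p = 0.0142 by edgeR), and DUSP6 had 115, 126 and 137 CPM and was higher by 0.34 ± 0.10 (adjusted p = 0.0463 by edgeR). The calls of DUSP5 and SPRY4 held in edgeR without any 1 library. DUSP1 was lost without FUCO-1 replicate 2 (adjusted p = 0.0576) or FUCO-2 replicate 1 (0.0578), DUSP6 without any 1 of the 6 libraries compared except FUCO-2 replicate 1 (up to 0.149 without FUCO-2 replicate 3) and SPRED1 without any 1 of them except FUCO-1 replicate 2 (up to 0.256 without FUCO-1 replicate 3). DUSP6 was also just lost without Con replicate 2 or 3 or Model replicate 1 or 2 (up to 0.0568), and SPRED1 without Con replicate 3, FUCO-0.5 replicate 1 or 3, any 1 Model library or any 1 RES library (up to 0.0599).

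Against the Model, the 2 μM dose therefore split the genes. SPRY4 and SPRED1 passed as higher, 2 of the 10, where 10.8% of all genes did. DUSP1, DUSP4, DUSP6 and DUSP10 passed as lower, 4 of the 10, where 9.71% did. With the fold requirement 1 of the 10 was called, DUSP1, against 1.6% of all genes. SPRY4 was at 1.42 times its Model level (log2 fold change 0.51 ± 0.12, adjusted p = 0.00362 by edgeR) and SPRED1 at 1.27 times (log2 fold change 0.35 ± 0.11, adjusted p = 0.0261 by edgeR). DUSP1 was at 40.4% of the Model mean (log2 fold change -1.31 ± 0.10, adjusted p = 2.38e-09 by edgeR). DUSP10 had 7.78, 10.3 and 7.69 CPM (log2 fold change -0.84 ± 0.13, adjusted p = 8.36e-05 by edgeR) and DUSP4 7.55, 7.45 and 6.19 CPM (log2 fold change -0.81 ± 0.18, adjusted p = 0.00197 by edgeR). Each of them lay below every Model library. DUSP5 stood at 107% of the Model mean, with a 95% interval of the log2 difference from -0.25 to 0.44. Left-out libraries ended the call of DUSP6 (log2 fold change -0.37 ± 0.10, adjusted p = 0.0106, and 0.088 without Model replicate 3 by edgeR) and of SPRED1 (adjusted p = 0.138 without Model replicate 1, 0.0535 without Model replicate 3 and 0.0886 without FUCO-2 replicate 2 by edgeR). At this dose all 9 hepatocyte markers were lower than in the Model, and their part in these changes was not tested.

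**Figure D3:**
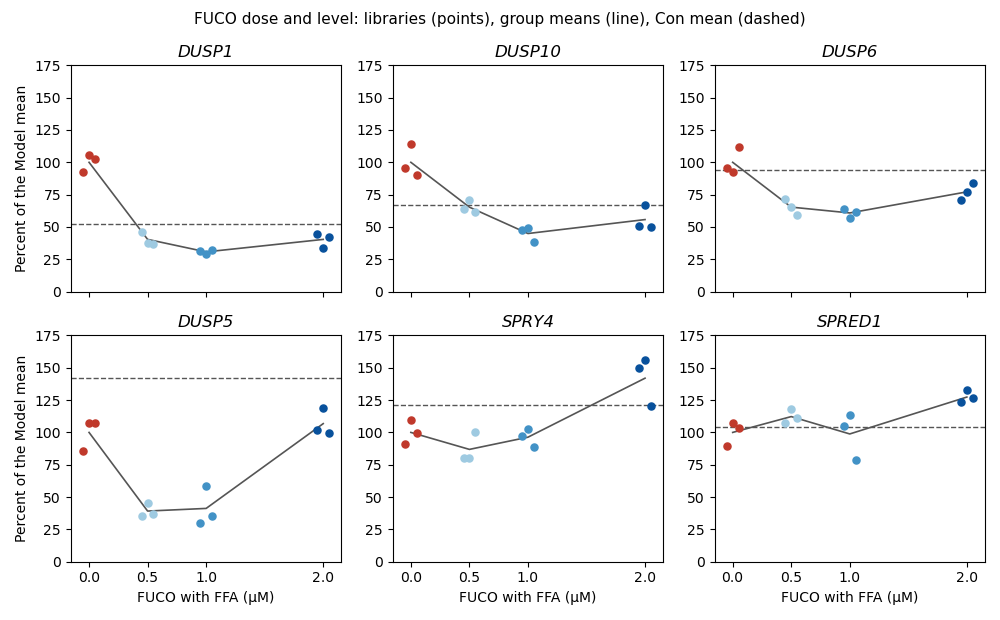
Level of 6 of the genes in percent of the Model mean (vertical axis) against the FUCO dose (µM, horizontal axis, 0 is the Model), with libraries as points, group means joined by a line and the Con mean dashed. DUSP5 lies at 39.2%, 41.2% and 107% of the Model mean at 0.5, 1 and 2 μM, whereas DUSP1 stays at 40.4%, 30.7% and 40.4%.

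Con gave a reference that does not share the Model libraries. Against Con, 7 of the 10 genes passed as lower at 0.5 μM (DUSP1, DUSP4, DUSP5, DUSP6, DUSP8, SPRY2 and SPRY4), where 11.4% of all genes did. At 1 μM 8 of the 10 passed as lower, all except SPRY4 and SPRED1, where 10.1% of all genes did. At 2 μM 5 of the 10 passed as lower (DUSP1, DUSP4, DUSP6, DUSP8 and SPRY2), where 11.9% did. With the fold requirement, 2 of the 10 were called at 0.5 μM (2.38% of all genes), 2 at 1 μM (2.34%) and 1 at 2 μM (3.17%). These were DUSP4 and DUSP5 at the lower doses and DUSP4 at 2 μM. The 3 comparisons share the Con libraries. DUSP1, which was higher in the Model, was below Con at each dose, at 77.6%, 59.0% and 77.6% of the Con mean, with every library below every Con library. Its log2 fold changes against Con were -0.37 ± 0.10, -0.76 ± 0.10 and -0.37 ± 0.10 (adjusted p = 0.00719, 3.9e-06 and 0.00623 by edgeR). DUSP10 stood at 97.4% of Con at 0.5 μM and 67.0% at 1 μM, where it passed (log2 fold change -0.58 ± 0.14, adjusted p = 0.00519 by edgeR). DUSP4, the lowest per length of the phosphatases among the 10 with FUCO, was at 39.4%, 33.3% and 39.3% of Con, and DUSP5 at 27.6%, 29.0% and 75.2%. SPRY4 at 2 μM was at 117% of Con, within the test's error (log2 fold change 0.23 ± 0.12, adjusted p = 0.166 by edgeR). Single libraries decided several of the smaller changes in edgeR. At 2 μM the call of DUSP1 was lost without FUCO-2 replicate 2 (adjusted p = 0.0594), DUSP6 without FUCO-2 replicate 1 or 2 or Con replicate 2 or 3 (up to 0.166 without Con replicate 3), and DUSP8 without any 1 Con library or FUCO-2 replicate 2 or 3 (up to 0.198 without FUCO-2 replicate 3). SPRY2 at 2 μM was lost without Con replicate 2 or 3 or FUCO-2 replicate 1 or 2 (up to 0.258 without FUCO-2 replicate 2) and just lost without any 1 Model library, FUCO-1 replicate 1 or 2 or RES replicate 1 (up to 0.0549), and DUSP16 at 1 μM without Con replicate 2 (0.0745) or FUCO-1 replicate 3 (0.0667). Calls were gained for SPRY4 at 1 μM without Con replicate 1, FUCO-0.5 replicate 3 or FUCO-2 replicate 3 (adjusted p down to 0.0366) and at 2 μM for DUSP5 as lower without Con replicate 1 or FUCO-1 replicate 2 (down to 0.0142), for DUSP10 as lower without FUCO-2 replicate 2 (0.0467) and for SPRED1 as higher without Con replicate 2 or FUCO-1 replicate 2 or 3 (down to 0.0217).

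RES was compared with the Model to ask the same of the second agent. DUSP4 and DUSP8 passed as lower, 2 of the 10, where 25.1% of all genes did, and SPRED1 passed as higher, 1 of the 10, where 24.4% did. The remaining 7, DUSP1 and DUSP10 among them, did not pass, and the median change of the 10 was -0.06, against 0.00 for all genes. With the fold requirement 2 of the 10 were called, DUSP4 and DUSP8, against 9.91% of all genes. DUSP8 had 55, 55.5 and 47.2 CPM in the Model and 19, 19.4 and 17.8 CPM with RES, 35.7% of the Model mean (log2 fold change -1.49 ± 0.10, adjusted p = 1.87e-11 by edgeR). The RES libraries lay far below all others, since the lowest DUSP8 level in the other 15 libraries was 40.4 CPM. The overlapping antisense gene KRTAP5-AS1 moved alike, with 58 to 69 counts in the Model and 8 to 17 counts with RES. DUSP4 had 4.8, 4.04 and 4.66 CPM with RES, 36.3% of the Model mean, and did not overlap the Model (log2 fold change -1.45 ± 0.18, adjusted p = 4.43e-07 by edgeR). SPRED1 had 18, 21.5 and 20.7 CPM in the Model and 27.2, 23.8 and 24.8 CPM with RES (log2 fold change 0.33 ± 0.11, adjusted p = 0.0132 by edgeR). Its call was lost without Model replicate 1 (adjusted p = 0.0875 by edgeR) or RES replicate 1 (0.0717). The 9 hepatocyte markers moved beside these genes, 8 lower and FGB higher with RES, and their part was not tested.

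DUSP1 with RES stayed near the Model, with 276, 300.3 and 269.6 CPM and a 95% interval of the log2 difference from -0.28 to 0.11. DUSP10 had 14.2, 16.6 and 13 CPM, with an interval from -0.34 to 0.18. DUSP5 had 15.8, 15.9 and 13.2 CPM and a log2 fold change of 0.36 ± 0.16 that did not pass (adjusted p = 0.0689 by edgeR), although no library overlapped the Model. The call of DUSP5 was gained when Con replicate 1, FUCO-1 replicate 2 or RES replicate 3 was left out (adjusted p = 0.0438, 0.0301 and 0.0477 by edgeR). Against Con, of the 10 genes 4 passed as higher (DUSP1, DUSP6, DUSP10 and SPRED1), where 28.8% of all genes did, and 3 as lower (DUSP4, DUSP8 and DUSP16), where 28.5% did. With the fold requirement 2 were called, DUSP4 and DUSP8, against 13.3% of all genes. DUSP4 had 25.0% and DUSP8 31.2% of the Con mean. DUSP6 with RES had 162, 219 and 166 CPM, and 1 library decided its call against Con (log2 fold change 0.24 ± 0.10, adjusted p = 0.0433, and 0.451 without RES replicate 2 by edgeR). DUSP6 was also lost without Con replicate 1 or 2 or FUCO-1 replicate 1 (up to 0.13), in DESeq2 (0.0586) and in a fit of the 2 groups alone (0.0744), and the call of SPRY2 as lower was gained without Con replicate 1 (0.0337). DUSP16 was lost without Con replicate 1 or 2 or RES replicate 1 or 2 (adjusted p up to 0.113 by edgeR), and SPRED1 without Con replicate 1 or 3 or RES replicate 1 or 3 (up to 0.145).

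The other members of these families gave a check on how general the changes were. Of 11 other MAPK phosphatase, Sprouty and Spred genes, 9 passed the filter on low counts. None passed as higher or lower at 0.5 or 1 μM FUCO against the Model in edgeR, where 1 and 0 of the 9 had an unadjusted p under 0.05, against 11.3% and 16.3% of all genes. In the Model 2 of the 9 were lower than in Con, DUSP9 and DUSP22, where 9.12% of all genes were. DUSP9 had 312, 309.6 and 293 CPM in Con, then 194, 189.5 and 180.4 CPM in the Model and 50.4, 47.5 and 47.3 CPM with RES. The 3 groups were fully separate, with a log2 fold change of -0.70 ± 0.09 for the Model against Con (adjusted p = 1.24e-05 by edgeR) and -1.96 ± 0.10 for RES against the Model (adjusted p = 5.79e-14 by edgeR). At 2 μM DUSP9 was lower than in the Model (-0.37 ± 0.10, adjusted p = 0.00791 by edgeR), and DUSP22 and SPRED3 were higher. With RES, DUSP14, SPRED2 and SPRED3 were higher and DUSP3 and DUSP9 lower, where 24.4% and 25.1% of all genes were. SPRED2, a relative of SPRED1, had 92.2 ± 3.76 CPM in the Model and 119.9 ± 6.78 CPM with RES (log2 fold change 0.38 ± 0.07, adjusted p = 0.000134 by edgeR). SPRY1 ranged only from 25.6 to 29.4 CPM between group means and passed in none of the 11 comparisons.

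Further up the pathway are the ligands and receptors that start it. The counts in these and the following lists are to be read beside the shares of all genes. In the Model against Con 8.43% of all genes were higher and 9.12% lower. Against the Model, 1.16% were lower at 0.5 μM and 2.32% at 1 μM. At 2 μM 10.8% were higher and 9.71% lower, and with RES 24.4% were higher and 25.1% lower. From 1 to 2 μM 4.07% were higher. Of 9 ligand genes tested, 2 were higher in the Model than in Con, FGF2 (1.56 ± 0.21) and AREG, an EGF receptor ligand (0.67 ± 0.17). At both 0.5 and 1 μM FUCO, 2 of the 9 were lower than in the Model. These were EREG, also an EGF receptor ligand (-0.80 ± 0.13 and -0.88 ± 0.13), and GDF15, a stress-induced cytokine (-1.15 ± 0.16 and -1.04 ± 0.16). At 2 μM AREG was higher than in the Model (0.56 ± 0.16), and against 1 μM 4 of the 9 were higher (AREG, EREG, FGF2 and GDF15) and 1 was lower (IGF2). With RES 5 of the 9 were higher, among them AREG (1.36 ± 0.16) and GDF15 (1.21 ± 0.16), and 2 were lower, IGF2 (-3.19 ± 0.13) and FGF21. Of 10 receptors, 2 were lower in the Model (MET and FGFR4) and 5 were lower with RES, FGFR2 the most (-1.21 ± 0.12). No receptor passed at any FUCO dose against the Model in edgeR. An unadjusted p under 0.05 was reached by 0, 0 and 2 of the 10, against 11.3%, 16.3% and 33.0% of all genes.

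The adaptors, RAS proteins and kinases of the cascades follow. Of 19 genes of the ERK cascade, 1 was higher and 1 lower in the Model than in Con, KSR1, a scaffold of the cascade (0.61 ± 0.13), and BRAF (-0.41 ± 0.09). In edgeR 0 of the 19 passed at 0.5 or 1 μM FUCO. An unadjusted p under 0.05 was reached by 1 and 0 of them, against 11.3% and 16.3% of all genes. At 2 μM MAP2K1 was higher (0.26 ± 0.07), and with RES 2 were higher and 5 lower, among them MAPK3, which encodes ERK1 (-0.55 ± 0.09). Of all genes 24.4% were higher and 25.1% lower with RES. Of 16 genes of the JNK and p38 cascades, 2 were higher at 2 μM against the Model (MAP3K20 and MAPK12), where 10.8% of all genes were. At that dose 1 was lower (MAPK8, which encodes JNK1), where 9.71% were. With RES 4 were higher and 3 lower, where 24.4% and 25.1% of all genes were. In the other comparisons with the Model, including Con, 0 of the 16 passed in edgeR. For the Model against Con and for 0.5 and 1 μM, 2, 1 and 2 had an unadjusted p under 0.05. The shares of all genes were 30.2%, 11.3% and 16.3%.

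Transcripts known to follow ERK activity, other than the 10 genes, were tested for 8 genes. In the Model 2 were higher than in Con, IER3 (1.13 ± 0.21) and PHLDA1 (0.55 ± 0.12), and 2 were lower, the ETS factors ETV4 (-0.96 ± 0.12) and ETV5 (-0.37 ± 0.11). IER3 and PHLDA1 were lower than in the Model at 0.5 μM (-1.31 ± 0.21 and -0.70 ± 0.12) and at 1 μM (-1.28 ± 0.21 and -0.92 ± 0.12), the direction of DUSP1 and DUSP10. No other of the 8 passed at these doses, and the median change of the 8 was -0.09 at 0.5 μM and -0.03 at 1 μM. At 2 μM 5 of the 8 were higher than in the Model, where 10.8% of all genes were. They were led by FOSL1, an AP-1 subunit (1.49 ± 0.30), and ETV4 (0.92 ± 0.12). Of the 10 genes SPRY4 and SPRED1 were higher in that comparison, whereas DUSP1, DUSP4, DUSP6 and DUSP10 were lower. Against 1 μM 6 of the 8 were higher, where 4.07% of all genes were. This was the direction of DUSP1, DUSP5, DUSP6, SPRY4 and SPRED1. With RES, ETV5 (0.98 ± 0.10) and PHLDA1 (0.31 ± 0.12) were higher and CCND1, which encodes cyclin D1, was lower (-0.73 ± 0.09). Of 12 other inhibitors of receptor and RAS signaling, ERRFI1, an inhibitor of the EGF receptor, was lower at all 3 doses (-0.63 ± 0.11, -0.67 ± 0.11 and -0.31 ± 0.11) and higher with RES (0.40 ± 0.11). It was the sole one of the 12 to pass at 0.5 and 1 μM. CBLB was the sole one to pass in the Model against Con, as lower. At 2 μM LRIG1 was higher and PEBP1 lower than in the Model. With RES 2 of the 12 were higher and 4 lower, where 24.4% and 25.1% of all genes were. All values in these lists are log2 fold changes ± SE that passed the edgeR test.

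Across libraries the 10 genes did not move as a block. Over the 18 libraries, Pearson's r of log2 CPM between the 45 pairs had a median of 0.269 and ran from -0.453 (DUSP8 and SPRED1) to 0.887 (DUSP1 and DUSP10). DUSP1 and DUSP6 had an r of 0.859. Without the 3 RES libraries the median was 0.497, the highest pairs were DUSP6 and SPRY2 (0.855) and DUSP1 and DUSP10 (0.854), and DUSP8 and DUSP4 had an r of 0.786. The 18 libraries are 6 groups of 3, so r largely describes the group means, and it is given without a test.

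**Figure D4:**
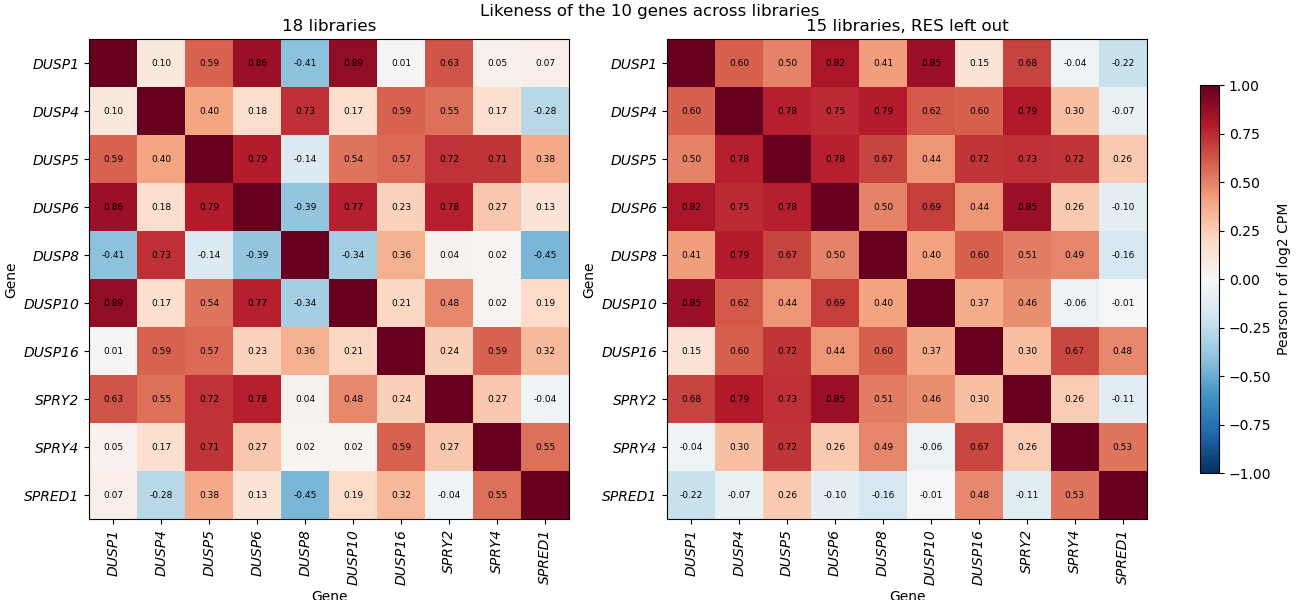
Pearson's r of log2 CPM between the 10 genes (both axes), over all 18 libraries (left) and over the 15 libraries without RES (right), colored from blue (-1) to red (1). DUSP8 has an r of -0.41 with DUSP1 over 18 libraries and 0.41 without RES.

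Among all 14557 genes, the 3 whose levels were most like those of DUSP1 over the 18 libraries were GADD45B (r = 0.958), EGR2 (0.957) and TRIB1 (0.955). EGR2 was also among the 3 most like DUSP6, beside MCL1 (0.936) and ARRDC3 (0.921), with an r of 0.926, and TRIB1 was among the 3 most like DUSP10 (0.914). DUSP5 was most like PPP1R15A (0.911), a regulator of the stress response that encodes GADD34, and TRIB3 (0.880) was the third of its list. DUSP8 was most like SHC2 (0.989), DUSP4 like KLF11 (0.941), SPRY2 like CPEB2 (0.921), SPRY4 like SH3RF3 (0.930), SPRED1 like TNPO1 (0.927) and DUSP16 like SLC20A1 (0.874). Without the RES libraries the gene most like DUSP1 was JUN (0.969) and the gene most like DUSP10 was KLF6 (0.944), whereas CPEB2 and SH3RF3 were again those most like SPRY2 and SPRY4. These values are a description over libraries that share groups, and the choice of the 3 genes used all 14557.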

How the data were processed

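Hep3B RNA was enriched for polyA transcripts and sequenced as paired reads. Per the labels and the study's methods, fastp trimming, STAR alignment (GRCh38.p14) and featureCounts gave the raw, unnormalized counts per gene that the authors deposited. All 18 columns were assigned to their groups by library name and title. Whether the counting used the strand, and how reads with several matches were treated, is not given in the sources used here.

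The deposited counts were analysed in R 4.3.3 with edgeR 4.0.16 (low counts removed by filterByExpr at 10 per library and 15 in total, TMM scaling, and the quasi-likelihood test from a single fit to the 18 libraries, in which group was the sole term and the prior count was 0.125). Significance was a Benjamini-Hochberg adjusted p under 0.05 over 14557 genes. An absolute log2 fold change over 1 was kept as an additional rule. DESeq2 1.42.0, other filters and scaling, fits of 2 groups, a replicate block and leaving out each library were alternatives. The edgeR fit and test were tried on simulated counts, and the other steps were not. Intervals are at 95%. The 10 genes and all lists were chosen with earlier results of these data known. List genes are named if they passed the test in the comparison described (at most 4 a list, the largest changes first), together with DUSP9, SPRY1 and SPRED2, and the 3 genes most like each of the 10 by Pearson's r. Same-numbered replicates did not deviate together (r between -0.127 and 0.143), so the numbers were not treated as pairs. A result on a listed gene is not reported here. Promoter windows came from RefSeq, GRCh38.p14. Totals of 16916688 to 23083498 counts bound the precision, and counts carry no molecular identifiers.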

Additional observations from a re-analysis of the deposited data

Results flagged for a closer look

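The change from 1 to 2 μM FUCO was tested directly (FUCO-2 against FUCO-1, log2 fold change, edgeR adjusted p under 0.05). Over the 10 genes and the signaling lists described above, 19 genes differed between these doses. The lists held 9 other family genes, 9 ligands, 10 receptors, 19 and 16 cascade genes, 8 transcripts that follow ERK and 12 other inhibitors. Among all 14557 genes 917 differed, 593 higher and 324 lower at 2 μM. The values are 1.38 for DUSP5, 0.56 for SPRY4, 0.39 for DUSP1, 0.36 for SPRED1 and 0.34 for DUSP6. Among the ligands they are 1.14 for AREG, 1.15 for EREG, 1.195 for GDF15, 0.56 for FGF2 and -0.43 for IGF2, the insulin-like growth factor. Among transcripts that follow ERK they are 1.66 for FOSL1, 0.87 for IER3, 0.70 for ETV4, 0.64 for PHLDA1, 0.59 for EPHA2 and 0.41 for ETV5. MAP3K20, a kinase of the stress cascades, had 0.53, ERRFI1, an inhibitor of the EGF receptor, 0.36, and PEBP1, an inhibitor of RAF, -0.24. Of the 9 hepatocyte markers 6 were lower at 2 μM than at 1 μM, and their sum moved beside these genes, from 47250 to 49618 CPM at 1 μM to 35669 to 40248 CPM at 2 μM, and its part was not tested. Both doses received FFA, and the 2 groups share no library.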

How the results depend on the processing

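The values of the 10 genes in 11 comparisons were recomputed under 24 alternatives each. Of these 2640 recomputed values 2500 kept their direction and their side of the threshold, 95 lost the call, 24 gained one and 21 changed sign. Every change of sign was of a value that had not passed and came from leaving out 1 library. The log2 fold change without 1 library is given here for those genes. For Model against Con, it ran from -0.0032 to 0.14 for DUSP6 and -0.12 to 0.016 for SPRED1. For FUCO-0.5 against Model, it ran from -0.048 to 0.0198 for DUSP16. For FUCO-1 against Model, it ran from -0.12 to 0.017 for SPRY4 and -0.12 to 0.12 for SPRED1. For FUCO-2 against Model, it ran from -0.0032 to 0.15 for DUSP5, -0.21 to 0.013 for DUSP8 and -0.0068 to 0.16 for DUSP16. For RES against Model, it ran from -0.18 to 0.021 for DUSP10 and -0.062 to 0.0056 for DUSP16. For FUCO-1 against FUCO-0.5, it ran from -0.28 to 0.27 for DUSP5, -0.11 to 0.066 for DUSP8 and -0.12 to 0.033 for SPRY2. For FUCO-1 against Con, it ran from -0.18 to 0.063 for SPRED1. Another scaling (RLE factors) left the number of genes called as it was in all 11 comparisons. DESeq2 called 1 gene and the absence of a filter 2 for FUCO-1 against FUCO-0.5, where the fit above called 0. In fits of the 2 groups alone, 3 genes passed for FUCO-2 against FUCO-1 and 2 for FUCO-2 against Con, in place of 5 each. Those fits also lost DUSP4 in the Model against Con (adjusted p = 0.0616), DUSP16 at 1 μM against Con (0.0581) and DUSP6 for RES against Con (0.0744), and gained DUSP5 for RES against Model (0.00591). Without a filter on low counts, DUSP16 was lost for RES against Con (0.0826). The rule with a fold change lowered the count to 0 for Model against Con, 2 for FUCO-0.5 against Model and 4 for FUCO-1 against Model. It lowered the count to 1 for FUCO-2 against Model, 2 for RES against Model and 1 for FUCO-2 against FUCO-1. Against Con it lowered the count to 2 each for FUCO-0.5, FUCO-1 and RES and to 1 for FUCO-2. Without 1 library, 2 to 4 genes passed for Model against Con, 3 to 5 for FUCO-0.5 against Model, 3 to 5 for FUCO-2 against FUCO-1 and 2 to 6 for FUCO-2 against Con. With a replicate block, 7 genes passed for FUCO-2 against Con in place of 5 and 4 for RES against Model in place of 3, and the number was as before in the other 9 comparisons. No single size marked what passed, and the Benjamini-Hochberg cut differed between comparisons. DUSP16 passed at -0.20 for RES against Con (unadjusted p = 0.0184 by edgeR), where 8341 of all genes passed. DUSP10 at -0.54 for FUCO-1 against FUCO-0.5 did not (unadjusted p = 0.000797 by edgeR), where 1 of all genes passed.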
